A study of Rosa rugosa with 4 samples.

Results

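Cytochrome P450 enzymes are haem proteins that insert an oxygen atom into a small molecule, and plants use them to build and to break down hormones, pigments, cuticle lipids, sterols and defence compounds. They are named by family number (CYP71, CYP72 and so on), related families are joined in clans, and most of them sit in the endoplasmic reticulum and take electrons from an NADPH-cytochrome P450 reductase. The contigs described here are those of the Rosa rugosa table whose best database hit was in Fragaria, Rosa, Prunus, Malus or Pyrus and whose hit name holds "cytochrome P450", without hits named for cinnamate, coumarate or flavonoid. There were 113 of them among the 65535 contigs of the table and among its 14513 contigs with a hit in these rose family genera (Rosaceae hits below). The table holds only part of the assembly, so P450 contigs outside it were not seen. Of the 113, 97 hit Fragaria, 7 Prunus, 7 Pyrus, 2 Malus and 0 Rosa. The words left out removed 0 contigs, since hits of those enzymes are named by their reaction.

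Petals and leaves of untreated Rosa rugosa, a shrub rose grown in a greenhouse in Kunming, were sequenced as total RNA after removal of ribosomal RNA, with 2 petal libraries (petal 1 and petal 2) and 2 leaf libraries (leaf 1 and leaf 2). The comparison asks which transcripts differ between the petal and the leaf. Values are FPKM, fragments per kilobase of contig scaled by the mapped fragments of the library. Whether both libraries of a tissue are from different plants is not stated in the sources used here, so p-values measure only the spread between these libraries, which may be technical.

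Low FPKM values are whole multiples of the value of 1 fragment, which gave the mapped depth: 18600000 and 23700000 fragments in the petal libraries and 26600000 and 20300000 in the leaf libraries, rounded. All 65535 contigs of the table together took 0.798 to 2.93% of them. Fragments per 10000000 mapped fragments are called normalised fragments below. The tissue labels could not be checked well in these contigs. The 20 photosynthesis contigs (photosystem, chlorophyll-binding and Rubisco hits) had 55.3 and 22.3 normalised fragments in the petal libraries and 23.3 and 25.6 in the leaf libraries. The 58 contigs of the petal list (nudix, germacrene, orcinol O-methyltransferase and anthocyanin hits) had 26.3 and 110 in the petal libraries, against 42.0 and 84.3 in the leaf libraries, so both lists overlapped between the tissues. Other organisms were present, and petal 2 stood apart from the other libraries: hits in Botrytis and its relatives, the grey mould fungi, took 27.9% of its fragments in this table and 0.0302 to 0.0764% in the other 3. Aphid hits took 6.46 and 3.43% in the petal libraries, against 0.280 and 0.367% in the leaf libraries. Their part in the P450 differences was not tested, and FPKM share 1 total per library.

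By hit name, 107 contigs fell into 21 CYP families, 5 were reductases and 1 carried no family number. The largest families were CYP71 with 19 contigs, CYP704 with 18, CYP749 with 16, CYP72 with 8, CYP90 with 7, and CYP82 and CYP714 with 6 each. CYP94 had 3 contigs, and CYP76, CYP78 and CYP86 had 0. Since the table holds only part of the assembly, a count of 0 does not mean that the family is missing from the plant. The names are those of the nearest hit in another species, and 83 of the 113 hits had an e-value of 1e-20 or lower, so contigs are grouped by family and not read as a given enzyme. The 113 contigs had 71 different hits, so several contigs can be pieces of 1 gene.

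The contigs were short pieces (median 281 nt, range 174 to 1826 nt), and only 14 were longer than 500 nt and 2 longer than 1000 nt. At these lengths a single fragment decides the value. The FPKM of 1 fragment, with its median over the 113 contigs, was 2.69 and 2.25 in the petal libraries and 2.76 and 3.60 in the leaf libraries. No contig under 197 nt was above 0 in any library, and 9 of the 113 were shorter than that. In all, 65 contigs (57.5%) were above 0 in some library, against 54.2% of Rosaceae hits, and 48 were listed at 0 in every library. Whole fragments over the 4 libraries came to 20 or more on 12 contigs (10.6%, against 7.99% of Rosaceae hits), to 4 to 19 on 28 and to 1 to 3 on 25. The 12 held 544 of the 839 fragments, and the values below rest mainly on them.

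**Figure D1:**
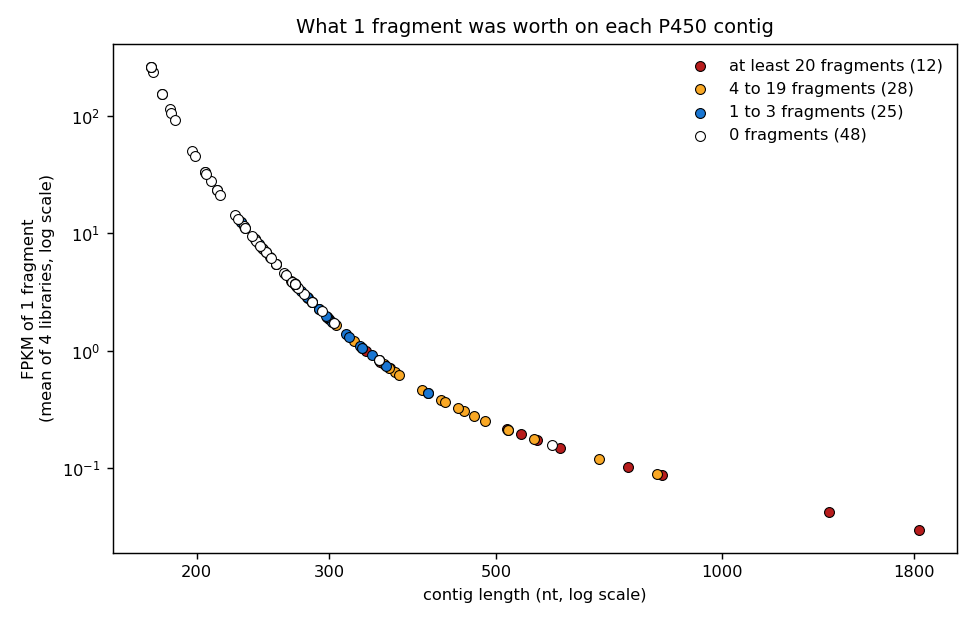
Each point is 1 of the 113 contigs, with its length in nt (x axis, log scale) against the FPKM that a single fragment was worth on it (y axis, mean of the 4 libraries, log scale), and the colour gives its fragments over the 4 libraries. The 12 contigs with at least 20 fragments reach down to 255 nt, where 1 fragment was worth 4.50 to 6.74 FPKM.

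Summed over all 113 contigs, P450 fragments were fewer in petals than in leaves. There were 61.7 and 80.6 normalised fragments in the petal libraries and 128 and 95.2 in the leaf libraries. The means were 71.1 ± 13.3 and 112 ± 23.1 (SD, n = 2 each), a petal to leaf ratio of 0.638. Both leaf libraries lay above both petal libraries. With a library left out, the ratio ran between 0.553 (without petal 2) and 0.748 (without leaf 1). Exact Poisson 95% intervals, which cover counting error only, overlapped between petal 2 (69.6 to 92.8) and leaf 2 (82.2 to 110). The 12 contigs with at least 20 fragments had 26.8 and 43.0 normalised fragments in the petal libraries, against 94.04 and 70.0 in the leaf libraries. The other 101 contigs had 34.9 and 37.5 in the petal libraries and 33.9 and 25.1 in the leaf libraries. A contig can reach 20 fragments through the tissue where it is higher, so this split is a description only. Over all Rosaceae hits there were 95322 and 57715 normalised fragments in the petal libraries and 67438 and 61557 in the leaf libraries. These overlapped, and their petal to leaf ratio of 1.19 was 0.895 without petal 1. In sums of a tissue, fewer cells with a transcript and less of it per cell cannot be told apart.

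Family by family, 11 CYP families had at least 20 fragments, and all 11 had the lower mean of normalised fragments in petals. In 4 of these (CYP71, CYP72, CYP97 and CYP749) both leaf libraries lay above both petal libraries, and the reverse held in 0 of the 11. For families of other genes, neither the share with the lower petal mean nor the share without overlap was computed, so both counts stand without a background. Among single Rosaceae hits with at least 20 fragments, both leaf libraries lay above both petal libraries in 22.6% and the reverse held in 27.2%. A family can reach 20 fragments through the tissue where it is higher, and families with fewer fragments went both ways. Mean normalised fragments were, for example, 2.68 in petals and 0.94 in leaves for CYP90, and 0 and 0.74 for CYP710. CYP71 is a large family of specialised metabolism. It had 5.90 and 15.2 normalised fragments in the petal libraries and 26.0 and 19.2 in the leaf libraries. Most of its leaf 2 fragments were on 1 contig (TR106349|c0_g1_i1), and without that contig the tissues overlapped. CYP72, whose members oxidise terpenoids and other hydrophobic compounds, had 1.07 and 0.42 in the petal libraries, against 5.27 and 3.45 in the leaf libraries. Of its 24 fragments, 19 were on the 4 companion contigs of 1 assembly component (TR127439, CYP72A15-like), 2 and 1 from petals and 9 and 7 from leaves. CYP97, the family of the carotenoid ring hydroxylases of chloroplasts, had 0 and 0.84 in the petal libraries, against 3.01 and 4.93 in the leaf libraries. In counts these are 0 and 2 petal fragments against 8 and 10 leaf fragments, all on pieces with the CYP97B2 hit. CYP749 had 2.15 and 2.95 in the petal libraries and 7.90 and 4.44 in the leaf libraries. Of the leaf values, 6.39 and 1.97 were on 1 of its 16 contigs (TR136856|c0_g1_i1), which was at 0 in petals. Without that contig the tissues overlapped. Exact Poisson 95% intervals, which cover counting error only, overlapped between petal 2 and leaf 2 in all 4 families, so no family total is apart from the other tissue in every pair of libraries.

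**Figure D2:**
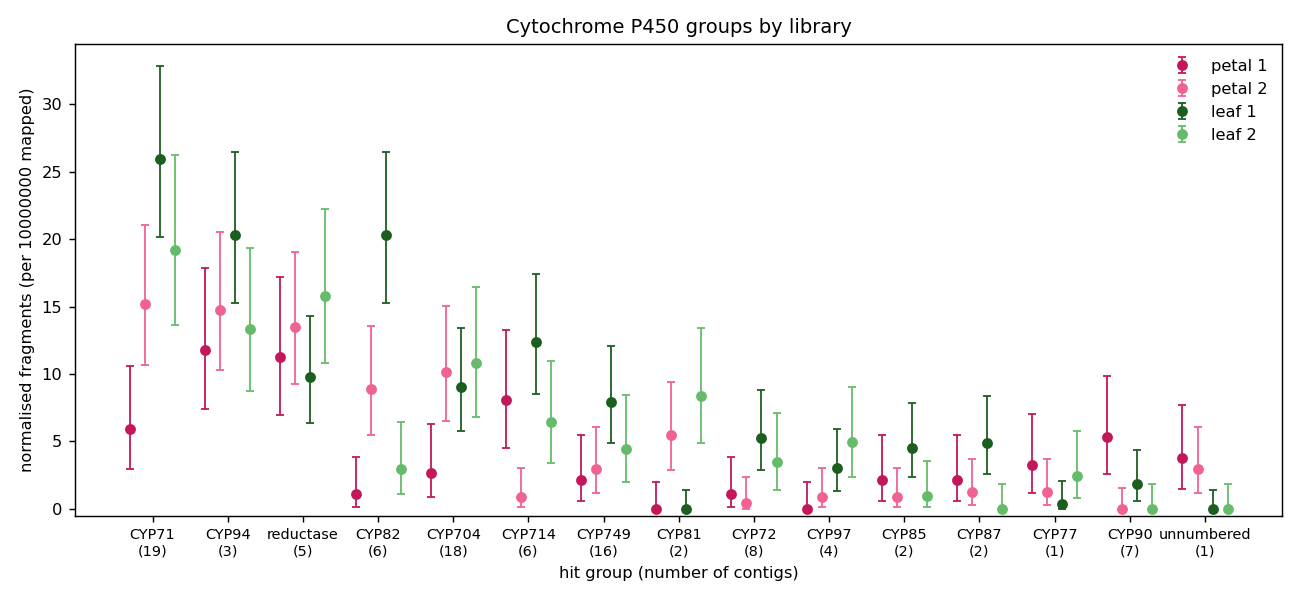
Normalised fragments, per 10000000 mapped (y axis), for each hit group with at least 10 fragments, in the order petal 1, petal 2, leaf 1, leaf 2, with the number of contigs in parentheses; bars are exact Poisson 95% intervals of counting error. CYP71 and CYP72 are higher in both leaf libraries, whereas CYP82 is highest in leaf 1 (20.3) and CYP81 is above 0 only in petal 2 (5.48) and leaf 2 (8.38).

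Among the fatty acid hydroxylase families, the 2 covered CYP94 contigs pointed opposite ways. CYP94C1 of Arabidopsis oxidises the hormone jasmonoyl-isoleucine and so turns it off, and its hit covered the longest of all P450 contigs (TR114758|c0_g1_i1, 1826 nt). This contig had 0.59 and 0.33 FPKM in the petal libraries and 1.34 and 0.89 FPKM in the leaf libraries, from 17 and 12 petal fragments and 54 and 27 leaf fragments. Its leaf values lay above both petal values. The log2 difference, petal minus leaf on log2(FPKM + 1), was -0.53. The CYP94A1-like contig (TR103219|c0_g1_i1, 336 nt), named for a fatty acid omega-hydroxylase of vetch, had 4.88 and 18.2 FPKM in the petal libraries and was listed at 0 in both leaf libraries. These values are 5 and 23 petal fragments against 0 and 0, and with a floor of 3 fragments in each leaf library the petal mean of normalised fragments was at least 4.75-fold higher. This bound was 2.06 without petal 2 and 7.44 without petal 1. It was the only one of the 12 contigs with the higher mean in petals (log2 difference 3.41). A second contig with this hit, 225 nt long, was at 0 everywhere.

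CYP704, a family that includes fatty acid hydroxylases of the Arabidopsis pollen wall, was spread over many low contigs, all with a CYP704C1-like hit. The 609 nt contig TR114935|c0_g1_i1 had 0.17 and 0.66 FPKM in the petal libraries and 0.89 and 1.19 FPKM in the leaf libraries. The 830 nt contig TR15092|c0_g1_i1 had 0.10 and 0.31 FPKM in the petal libraries and 0.36 and 0.97 FPKM in the leaf libraries. Neither contig overlapped between the tissues, each on 20 fragments in all, with log2 differences of -0.55 and -0.45. The first had 1 and 5 petal fragments against 7 and 7 leaf fragments, and the second 1 and 4 against 5 and 10. Exact Poisson intervals, which cover counting error only, overlapped between petal 2 and leaf 1 in both contigs. In the second they were 1.09 to 10.2 fragments in petal 2 and 1.62 to 11.7 in leaf 1. Over all 18 contigs the family did overlap, with 2.68 and 10.1 normalised fragments in the petal libraries and 9.03 and 10.8 in the leaf libraries. The CYP77A3-like contig (TR125797|c0_g1_i1), of a family that hydroxylates cutin fatty acids in Arabidopsis, had 6 and 3 petal fragments and 1 and 5 leaf fragments. It was named after its values were seen, and its tissues overlapped.

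In the hormone families, a CYP714 contig was seen mainly in leaves and the brassinosteroid contigs varied with the library. CYP714A1 of Arabidopsis inactivates gibberellins, and the CYP714A1-like contig TR103369|c0_g1_i1 (1387 nt) had 0.05 and 0 FPKM in the petal libraries and 1.01 and 0.51 FPKM in the leaf libraries. That is 1 and 0 petal fragments against 29 and 11 leaf fragments, a wide gap in counts that the log2(FPKM + 1) scale shrinks to -0.77. The CYP714 family as a whole overlapped (8.05 and 0.84 normalised fragments in the petal libraries, 12.4 and 6.41 in the leaf libraries), because 2 contigs with a CYP714C2-like hit had 12 fragments, all in petal 1. Brassinosteroid synthesis has CYP90B1 and CYP90A1 among its earlier steps and CYP85A at its end. Its contigs (CYP85, CYP90 and CYP724, 11 in all) had 7.51 and 0.84 normalised fragments in the petal libraries and 8.28 and 0.99 in the leaf libraries. These values separate the libraries numbered 1 from those numbered 2, not petals from leaves. The best covered of them, the CYP85A contig TR19750|c0_g1_i1 (361 nt), had 2.83 and 1.14 FPKM in the petal libraries and 7.96 and 1.79 FPKM in the leaf libraries (log2 difference -0.80, and 0.04 without leaf 1), with overlap. CYP734A1, which inactivates brassinosteroids, was seen with 2 fragments in petal 1 only.

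In CYP71 the fragments sat mostly on pieces with a CYP71A hit, a subfamily of varied roles. The CYP71A24-like contig TR106349|c0_g1_i1 (517 nt) had 0.94 and 2.81 FPKM in the petal libraries and 4.46 and 7.96 FPKM in the leaf libraries, from 4 and 15 petal fragments and 24 and 32 leaf fragments. Its leaf values lay above both petal values, and the log2 difference was -1.36. The CYP71A4-like contig TR101684|c0_g1_i1 (749 nt) had 0.12 and 0 FPKM in the petal libraries and 2.85 and 0 FPKM in the leaf libraries. All but 1 of its 34 fragments came from leaf 1, and leaf 2 had 0. Its log2 difference, -0.89, was 0.08 without leaf 1. A CYP71A1-like contig (TR18978|c0_g1_i1, 332 nt, named after its values were seen) ran the other way, with 3.10 and 13.4 FPKM in the petal libraries and 0 in both leaf libraries, from 3 and 16 fragments.

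CYP82A3 of soybean is a defence-induced P450, and the CYP82A3-like contigs show how far a single library can carry a value. TR14344|c0_g3_i1 (255 nt) had 10.6 and 0 FPKM in the petal libraries and 245 and 0 FPKM in the leaf libraries, the highest value of any of the 113 contigs, from 2 petal 1 fragments and 46 leaf 1 fragments. Its log2 difference of -2.20 became 1.77 without leaf 1. A companion contig of the same assembly component and the same length, TR14344|c0_g2_i1, had 0 in both petal libraries, against 21.3 and 40.4 FPKM in the leaf libraries, from 4 and 6 fragments. The other companion was at 0. The 3 contigs have the same hit, and how the abundance estimate shared fragments among them is not known, so their sum is given too: 2 and 0 petal fragments against 50 and 6 leaf fragments. A CYP82D47-like contig (TR124563|c0_g1_i1, 685 nt, named after its values were seen) had 19 fragments, all in petal 2.

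The remaining covered contigs were a CYP749A22-like and a CYP81E8-like piece. TR136856|c0_g1_i1 (CYP749A22-like, 539 nt) was listed at 0 in both petal libraries, against 2.85 and 0.90 FPKM in the leaf libraries, from 17 and 4 fragments (log2 difference -1.44). With a floor of 3 fragments in each petal library, its leaf mean of normalised fragments was at least 2.91-fold higher than in petals, a bound that was 1.37 without leaf 1 and 4.45 without leaf 2. TR18471|c0_g1_i1 (CYP81E8-like, 567 nt), of a subfamily that hydroxylates isoflavonoids in legumes, had 0 and 1.99 FPKM in the petal libraries and 0 and 3.38 FPKM in the leaf libraries. It was present in the libraries numbered 2 of both tissues, with 13 and 17 fragments, and in neither library numbered 1. Its log2 difference was -0.28, but 0.51 without petal 1 and 0.79 without leaf 2. The contig without a family number (TR121538|c0_g1_i1, hit in garden strawberry) had 7 and 7 petal fragments and 0 leaf fragments, 2.12 and 1.68 FPKM against 0, and was named after its values were seen.

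The reductases, the electron donors, overlapped between the tissues in their sum. The 5 reductase contigs had 11.3 and 13.5 normalised fragments in the petal libraries and 9.78 and 15.8 in the leaf libraries, a ratio of 0.969, with both petal values between the leaf values. The best covered piece, TR117240|c0_g1_i1 (P450 reductase 2, 351 nt), had 11.2 and 18.0 FPKM in the petal libraries and 17.5 and 32.9 FPKM in the leaf libraries (log2 difference -0.72). Its values overlapped, and the highest petal value was above the lowest leaf value. Another reductase piece (TR133621|c0_g1_i1, 269 nt) had 25.3 and 12.2 FPKM in the petal libraries and 11.04 and 0 FPKM in the leaf libraries, from only 7 and 4 petal fragments and 3 and 0 leaf fragments. Of the 7 contigs of cytochrome b5, an alternative donor, and its reductase, 3 were above 0, with at most 3 fragments.

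Over the 12 contigs, 11 had the lower mean log2(FPKM + 1) in petals and 1 the higher. In 6 of the 12 both leaf libraries lay above both petal libraries, where 22.6% of the 1160 Rosaceae hits with at least 20 fragments did so, and in 1 of the 12 both petal libraries lay above both leaf libraries, against 27.2% of those hits. Of the 6, the CYP704C1-like contigs TR114935|c0_g1_i1 and TR15092|c0_g1_i1 had 5 and 4 fragments in petal 2, against 7 and 5 in leaf 1. Their place among the 6 therefore rests on gaps of few fragments. The median log2 difference was -0.74 over the 12 and 0.10 over the 1160 hits. With contigs of the same hit gene summed, 13 genes had at least 20 fragments, 7 of them with both leaf libraries higher and 1 with both petal libraries higher. Of the 1132 hit genes with at least 20 fragments over all Rosaceae hits, summed in the same way, 22.3% had both leaf libraries higher and 26% both petal libraries. The 12 are a small part of the 113 contigs, and some reached 20 fragments through 1 tissue alone, so these counts describe the 12 and do not speak for the rest.

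**Figure D3:**
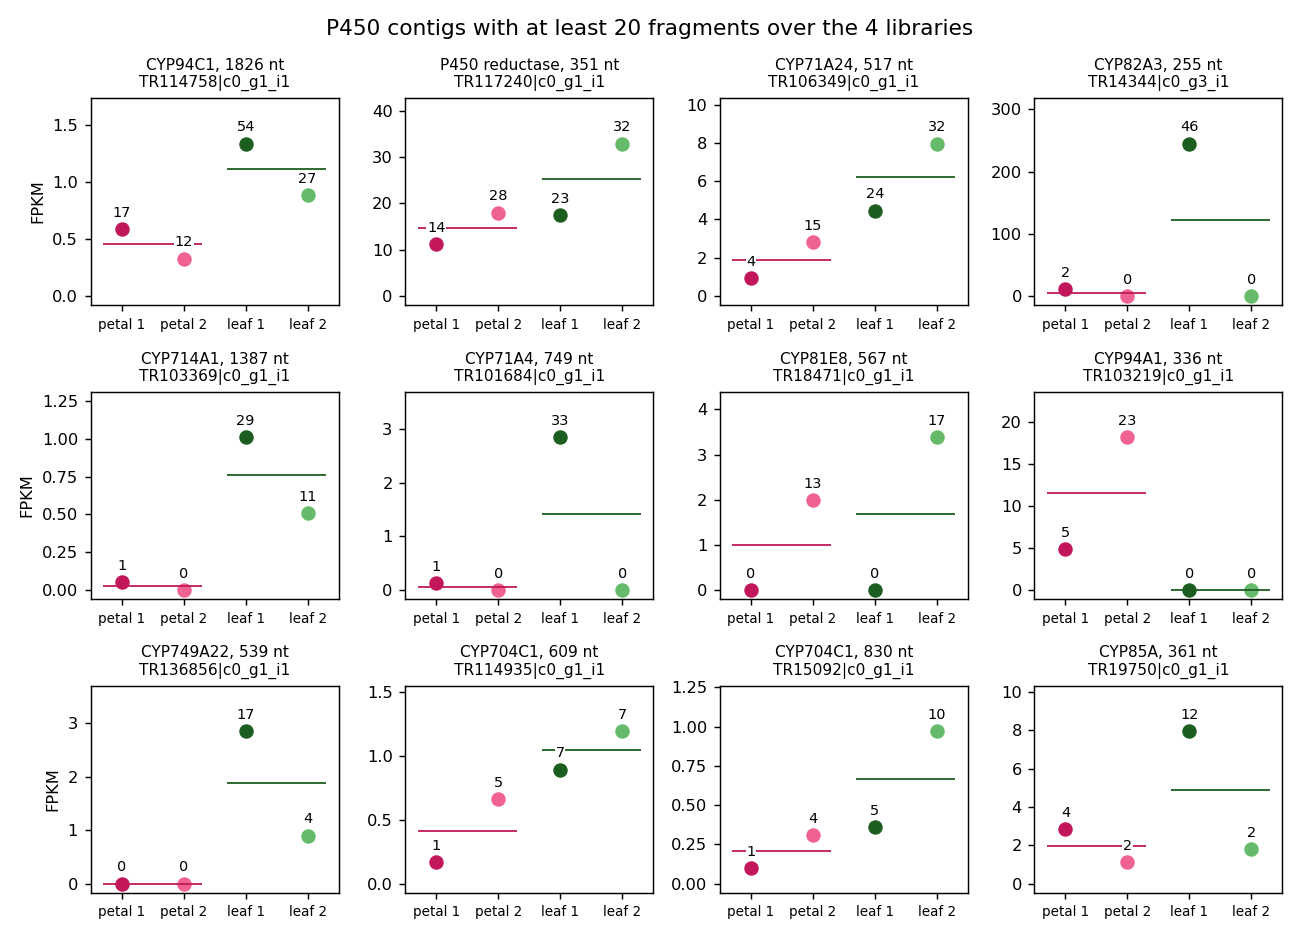
FPKM (y axis, linear, each panel with its own range) of the 12 contigs with at least 20 fragments, 1 point a library in the order petal 1, petal 2, leaf 1, leaf 2; lines are the mean of a tissue and numbers are fragments. CYP94A1 is the panel with petals above leaves, 6 panels have both leaf points above both petal points, and CYP82A3 and CYP71A4 are each carried by leaf 1.

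**Figure D4:**
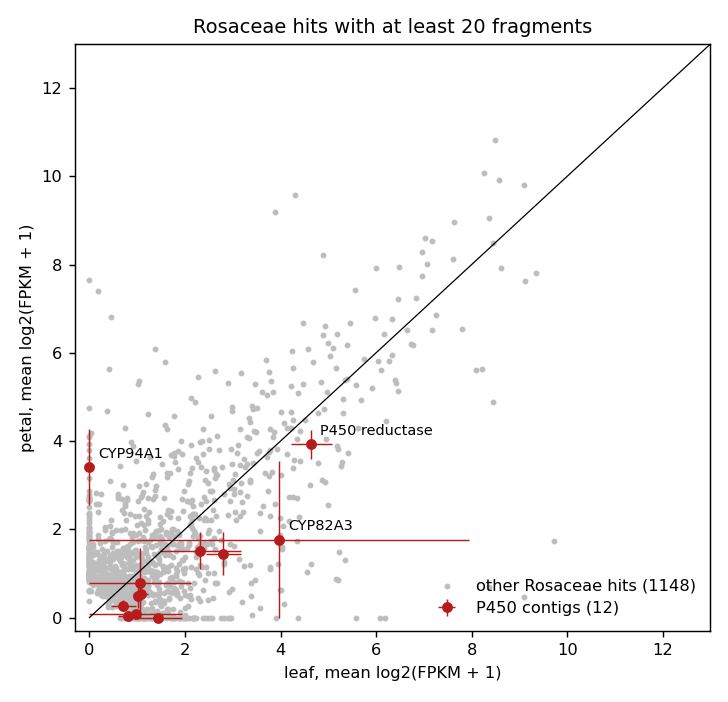
Mean log2(FPKM + 1) in petals (y axis) against leaves (x axis) for the Rosaceae hits with at least 20 fragments; red points are the 12 P450 contigs with bars from the lower to the higher library, and the line marks equal levels. CYP94A1, at 0 in leaves, lies above the line, and the other 11 lie below it.

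No P450 contig passed the test of petals against leaves. The filter used here, which the paper describes for its clustering (mean and SD of at least 10 FPKM), left 2157 contigs of all organisms. Of these, limma called 24 (1.11%) at an adjusted p under 0.05. The filter left 7 P450 contigs, 0 of them called, 1 with an unadjusted p under 0.05 and all with an adjusted p of 0.515. Of these 7, 6 rested on 2 to 14 fragments, since few fragments on a short contig already pass 10 FPKM. For example, TR122346|c0_g1_i1 (CYP749A22-like, 213 nt) had 71.3 FPKM in petal 1 from 3 fragments, and TR134387|c0_g1_i1 (CYP714A1-like, 205 nt) had 61.0 FPKM in petal 2 from 2 fragments. The limma fit over Rosaceae hits with at least 20 fragments called 1 of 1160 (0.0862%) and 0 of the 12 P450 contigs. The lowest adjusted p among the 12 was 0.228, for the CYP94A1-like contig (log2 difference 3.41 ± 0.78 SE), followed by 0.278 for the CYP749A22-like contig (-1.44 ± 0.49 SE) and 0.283 for the CYP714A1-like contig (-0.77 ± 0.28 SE). In that fit 2 of the 12 had an unadjusted p under 0.05. An exact permutation test of 2 against 2 libraries cannot go below p = 0.333, so none is given.

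Some P450s stood in the table under the name of their reaction and are outside the 113. The single CYP73 contig among the 113 (TR128912|c0_g1_i1, CYP73A100-like, 232 nt) was listed at 0, where 3 fragments would have read as 28.9 to 39.5 FPKM. Yet cinnamate 4-hydroxylase, a CYP73 enzyme early in phenylpropanoid synthesis, was present as a contig with a Rosa rugosa hit (TR13804|c0_g1_i1, 1892 nt). This contig had 224 and 224 FPKM in the petal libraries and 571 and 739 FPKM in the leaf libraries, on 62711 fragments. Its log2 difference was -1.53, with an adjusted p of 0.165 in the limma test above, and of 0.0221 with a mean of at least 1 FPKM as the filter. Over all alternatives its adjusted p ran between 3.93e-90 and 0.657. The 42 other contigs named by a P450 reaction had 19.3 and 69.6 normalised fragments in the petal libraries, against 21.8 and 7.40 in the leaf libraries. The geraniol 8-hydroxylase-like contig TR115895|c0_g1_i1, of an enzyme that starts iridoid synthesis from a scent alcohol in other plants, had 3.86 and 11.7 FPKM in the petal libraries and 1.96 and 1.32 FPKM in the leaf libraries. Another with that hit name (TR128699|c0_g1_i1) had 41.4 FPKM in petal 2 and was at 0 in the other 3 libraries. A longer one with the same hit gene (TR128435|c0_g1_i1, 889 nt) had 0.27 and 2.12 FPKM in the petal libraries and 0.39 and 0.09 FPKM in the leaf libraries. An abscisic acid 8'-hydroxylase contig (TR16572|c0_g1_i1), of the enzyme that breaks down this stress hormone, had 7.69 and 3.58 FPKM in the petal libraries and 18.5 and 0 FPKM in the leaf libraries.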

How the data were processed

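Total RNA of 2 petal and 2 leaf samples was sequenced in paired reads. The authors assembled all reads together with Trinity, searched the contigs against nucleotide and protein databases, and estimated abundance with RSEM and bowtie (for both, version not given in the sources used here). Each deposited value is an FPKM with 2 decimals, and the table holds part of the assembly. The authors compared tissues with edgeR, which needs counts, so limma was used here.

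Contigs were chosen by words in their best hit, and CYP family and length were read from the annotation. No sequence of these contigs was used here. The FPKM of 1 fragment was read from the steps of low values at each length, and 98.7 to 98.8% of low values came out within 0.1 of a whole number. Depth and fragments follow from it. The main test was limma 3.58.1 (R 4.3.3) with a variance trend on log2(FPKM + 1), tissue as the only term, contigs with mean and SD of at least 10 FPKM, Benjamini-Hochberg adjustment and a threshold of 0.05, two-sided. A log2 difference on this scale understates changes of low contigs. Tables were made with Python 3.11.15 and scipy 1.17.1. Tested on 20 simulated data sets over 2157 contigs, the main filter recovered 5.93% of 4-fold and 13.9% of 16-fold changes and called 0 to 137 of 1957 unchanged contigs. Over 1160 Rosaceae hits with at least 20 fragments these were 29.9% and 92.7%, with 0 to 10 of 960 unchanged contigs called. The simulated counts had 1 fixed spread for all contigs, not estimated from these data, and no effect shared by same-numbered libraries. These shares therefore do not give the recovery in the real libraries.

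Named contigs are those with at least 20 fragments in their group (up to 3 a group, 4 a list of partner genes) or the largest differences among them; others are marked. Alternatives were other pseudocounts, filters, scalings, variance priors, a replicate block and leaving out each library. Members, lists and tests were chosen with earlier results of these data known.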

Additional observations from a re-analysis of the deposited data

Results flagged for a closer look

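Cytochrome P450 contigs with a hit in the pea aphid genus Acyrthosiphon lie outside the comparisons above and were seen mainly in petals. These 24 contigs had 24.2 and 16.5 fragments per 10000000 mapped in the petal libraries (mean 20.3) and 0.752 and 0 in the leaf libraries. Acyrthosiphon hits of every kind went the same way, with 7753 and 10045 in the petal libraries and 245 and 293 in the leaf libraries. The best covered was a CYP4C1-like contig (TR105556|c0_g1_i1, 1167 nt) with 0.92 and 0.48 FPKM in the petal libraries and 0.09 and 0 FPKM in the leaf libraries.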

How the results depend on the processing

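The number of contigs called for petals against leaves, 24 by the main test, was 9 with a mean of at least 1 FPKM as the filter, 430 with no filter, 0 with at least 20 fragments (307 of 5212 at an unadjusted p under 0.05), 1 over Rosaceae hits with at least 20 fragments and 0 with no trend in the prior (14 unadjusted). With a replicate block it was 51, and the block called no P450 contig either. The labels do not say what a replicate number shares, and same-numbered libraries of both tissues deviated together (correlation 0.50 across 1160 contigs, which are not independent). Leaving out each library gave 305 to 810 calls with a prior of 0.278 to 0.530 degrees of freedom, the lone library of a tissue being assumed to vary like the other tissue. These fits called 4 P450 contigs, each on 2 to 10 fragments and with the tissue of 2 libraries at 0: TR122346|c0_g1_i1, TR134387|c0_g1_i1, TR143469|c0_g1_i1 and TR14344|c0_g2_i1. In the fits with all 4 libraries none of the 113 P450 contigs was called, whereas the cinnamate 4-hydroxylase contig outside them was called in 4 of these fits (a mean of at least 1 FPKM, no filter, equal sums over Rosaceae hits and a robust prior). The median log2 difference of the 12 covered contigs, -0.74, was -1.31 with a pseudocount of 0.1, -0.14 with 10 and -0.86 with equal sums over Rosaceae hits, and ran between -0.83 and -0.61 with a library left out. The difference of TR14344|c0_g3_i1, -2.20, was 1.77 without leaf 1 and -6.17 without leaf 2. Chosen after seeing the data, the median over all 65 contigs above 0 was -0.38. The petal to leaf ratio of all P450 fragments, 0.638, ran between 0.553 and 0.748 with a library left out, was 0.595 without reductases, and was 1.23 without the 12 covered contigs, also chosen after seeing the data. The 2 decimals of the file limit contigs over 1000 nt, and short contigs are limited by their few fragments.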

Other observations

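Outside the rose family hits, 33 contigs had a P450 hit. Those with a hit in the leaf-spot fungus genus Marssonina, 4 contigs, had 0 petal fragments and 8 leaf fragments, all in leaf 1. Marssonina hits of every kind took 0.0125 and 0.162% of the fragments in this table in the petal libraries and 4.02 and 2.38% in the leaf libraries.

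Some P450 contigs were above 0 only in same-numbered libraries of both tissues, which was not particular to P450s. Besides the CYP81E8-like contig, seen only in the libraries numbered 2, a CYP87A3-like contig (TR109762|c0_g1_i1, 399 nt, named after its values were seen) had 3 and 0 petal fragments and 13 and 0 leaf fragments. The 7 CYP90 contigs, 4 of them above 0, had 10 and 0 petal fragments and 5 and 0 leaf fragments as a sum. Of the 7, 42.9% were above 0 in petal 1 and 28.6% in leaf 1, so the sum includes contigs seen in 1 library only. Of the 20 P450 contigs above 0 in exactly 2 libraries, 6 were above 0 in same-numbered libraries of both tissues, 9 in both libraries of 1 tissue and 5 in differently numbered libraries of both tissues. Among the 2238 Rosaceae hits above 0 in exactly 2 libraries, 1019 were above 0 in same-numbered libraries of both tissues, 898 in both libraries of 1 tissue and 321 in differently numbered libraries.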
